A study of Mus musculus with 7 samples.

Results

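Circadian clock genes, 10 of the 52230 genes with a transcript in the deposited files, were followed through stromal RNA-seq of mouse ovaries with and without the progesterone receptor (PGR). They were taken from a list of clock genes: the output factors Dbp, Tef and Hlf, the repressors Nr1d1, Nr1d2, Per1, Per2 and Per3, the activator Clock and the repressor Nfil3. All 10 passed the filter on low counts and were tested. None of the 10 differed between KO and WT at the adjusted threshold, and the lowest values in KO relative to WT were those of Dbp, at 65.9% of the WT mean, and Nr1d1, at 71.5%.

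The libraries came from female mice of the PRKO line (allele Pgrtm1Bwo), 4 from WT (PGR +/+) and 3 from KO (PGR -/-) ovaries. The null allele is carried in the germ line, so it is present in every tissue of a KO mouse and not only in the ovary. All mice were immature littermates, 21 to 27 days old in the sample labels and 21 to 25 days old in the series text, and all received 5 IU of eCG (PMSG), then 5 IU of hCG 44 h later, to induce ovulation. Ovaries were taken 8 h after hCG and punctured repeatedly to remove granulosa cells, and each library was made from the residual tissue of 3 mice pooled together. The WT libraries carry the numbers 1 to 4 and the KO libraries the numbers 2 to 4.

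The molecular clock is a transcriptional loop that runs in most cells of the body. CLOCK and BMAL1 (or its relatives) bind E-boxes and switch on the Per and Cry genes, whose proteins then block CLOCK and BMAL1. The same E-boxes drive Nr1d1 and Nr1d2, which encode the REV-ERB repressors of Bmal1, and the PAR bZIP factors DBP, TEF and HLF, which pass the rhythm on to further genes through D-boxes, where NFIL3 competes with them as a repressor. In the ovary, clock genes cycle in several cell types, and their time of day is set in part by hormones and by the light cycle. Output genes such as Dbp and Nr1d1 are at their highest about when Bmal1, Npas2 and Nfil3 are at their lowest. The clock times of the injections and of the collection of each pool are not given in the sources used here, so clock phase and genotype cannot be told apart where pools were collected at unlike hours.

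Upstream sequence is shown for the 2 members with the lowest p, Dbp and Nr1d1, and for the 2 whose 300 bases before the start of the most-read transcript hold an E-box or a D-box, Per1 and Per2. Each line is read 5′ to 3′ on the strand of the gene from GRCm39, and capitals mark an E-box (Per1) or a D-box (Per2).
Dbp: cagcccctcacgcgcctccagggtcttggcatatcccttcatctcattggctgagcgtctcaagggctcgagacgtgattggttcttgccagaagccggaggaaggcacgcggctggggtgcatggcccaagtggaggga
Nr1d1: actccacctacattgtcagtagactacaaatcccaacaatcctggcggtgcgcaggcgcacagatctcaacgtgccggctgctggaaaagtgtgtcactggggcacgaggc
Per1: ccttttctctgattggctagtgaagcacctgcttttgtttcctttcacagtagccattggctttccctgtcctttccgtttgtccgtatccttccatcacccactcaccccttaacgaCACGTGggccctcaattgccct
Per2: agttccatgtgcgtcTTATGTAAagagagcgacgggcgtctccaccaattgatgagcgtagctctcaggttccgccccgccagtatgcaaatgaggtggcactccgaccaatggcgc
The Dbp stretch lies at chr7:45354372-45354511 on the plus strand, and the Per1 stretch at chr11:68989128-68989267 on the plus strand. Both run up to the base before the transcript start. The Nr1d1 stretch lies at chr11:98666189-98666299 on the minus strand and ends 29 bases before the start, and the Per2 stretch lies at chr1:91387070-91387186 on the minus strand and ends 23 bases before it, since other annotated transcripts of those genes begin there. The E-box CACGTG, read on both strands, begins 22 bases before the start of Per1, and 7.37% of the 19232 windows of the same length before tested genes hold one. The D-box, searched as TTATGTAA or TTACGTAA on both strands, begins 125 bases before the start of Per2 and occurs in 1.06% of windows. The ROR element TAGGTCA was found in 1 member, Dbp, 189 bases before the start and inside an exon of the neighbouring gene Car11, against 2.29% of windows. A progesterone and glucocorticoid receptor element spelled ACANNNTGT was found in the window of Tef (5.99% of windows), and the cAMP response element TGACGTCA in no member (1.63% of windows). The windows of Per1, Nfil3 and Per3 lie wholly within the annotated span of the gene. That of Per3 stands before Per3-204, a transcript with no annotated coding sequence, so other starts of these genes were not searched. No E-box of these letters lay in the 300 bases before the starts of Dbp and Nr1d1.

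Per length of transcript, Nfil3 and Per1 were the most abundant members and Hlf the least. Mean TPM (a level per transcript that allows for length and depth) over the 7 libraries was 61.7 for Nfil3 and 37.7 for Per1. The next were Tef at 23.0 TPM, Nr1d2 at 17.3, Nr1d1 at 15.0, Clock at 14.3 and Dbp at 13.3. The lowest were Per2 at 4.15 TPM, Per3 at 3.72 and Hlf at 1.42. Over libraries, Nfil3 lay apart from Per1, Per1 from Tef, Dbp from Per2 and Per3 from Hlf. The ranges of neighbours from Tef down to Dbp overlapped, as did those of Per2 and Per3, so these orders are not resolved. Between 247 and 7290 reads per library stood behind each member, the fewest for Hlf and the most for Per1.

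Values below are CPM (reads per 1 M reads, scaled by TMM factors), given for WT1, WT2, WT3 and WT4 and then for KO2, KO3 and KO4. Fold changes are KO minus WT on the log2 scale from edgeR's quasi-likelihood fit across 19233 genes, with adjusted p-values over all of them. Calls needed an adjusted p no higher than 0.05 together with a log2 fold change of 0.5 or more in size, which held for 0.0104% of all genes tested and for 0 of the 10 members. With DESeq2 and the same thresholds, 0.823% of 17378 genes with an adjusted p were called, and again 0 of the 10 members. At an unadjusted p under 0.05 in edgeR, 5.1% of genes were lower in KO and 3.84% were higher, and among the members these were 2 (Dbp and Nr1d1) and 0. The KO and WT values did not overlap in 9.05% of genes tested and in 0 of the 10 members. Over the 10 members the median log2 fold change was -0.08 and the median absolute log2 fold change 0.11, beside -0.00 and 0.10 over all genes tested. The p-values measure the spread between pools of 3 mice. Library totals were 47.4 to 63.4 M reads. Pgr, the targeted gene, had 19.5, 31.0, 21.5 and 16.9 CPM in WT and 6.13, 6.52 and 7.56 in KO (log2 fold change -1.72, adjusted p = 0.0544, edgeR), so each library followed its label, with reads of the gene still present in KO.

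**Figure D1:**
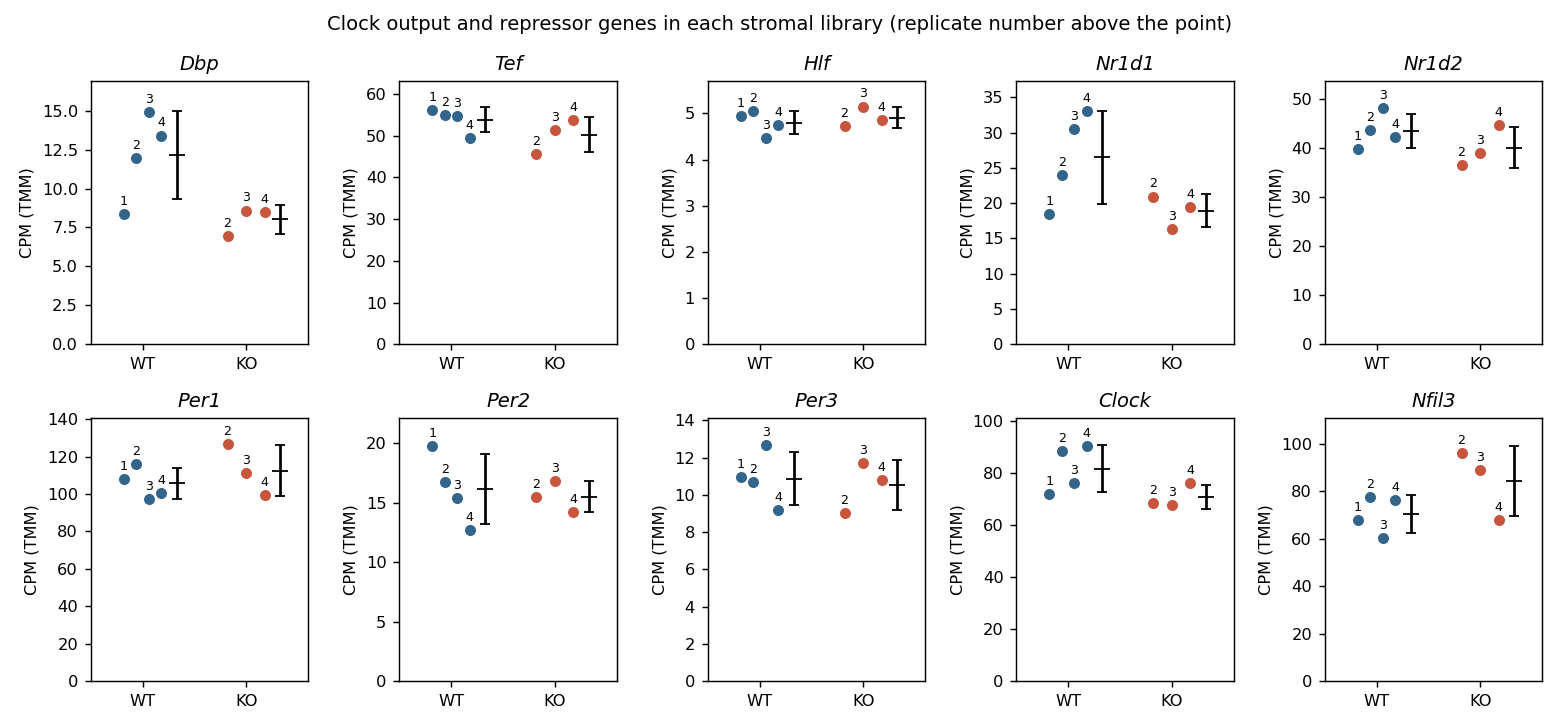
CPM (TMM-scaled, y axis from 0, a scale of its own for each gene) of the 10 clock genes in the 4 WT (blue) and 3 KO (red) libraries, with the replicate number above each point and a bar for the mean ± SD. Every gene has at least 1 KO library inside the WT range or the reverse, and WT1 is the WT library that lies among the KO libraries for Dbp and Nr1d1.

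Among the PAR bZIP output factors, Dbp differed most between the genotypes and Tef and Hlf little. Dbp (ENSMUSG00000059824, chr7:45354512-45359627, plus strand) encodes the D-box activator with the widest daily swing of the family. Its CPM was 8.36, 11.96, 14.9 and 13.4 in WT and 6.93, 8.59 and 8.52 in KO. WT2, WT3 and WT4 were above every KO library, while WT1 lay between KO2 and the other KO libraries, so the groups overlapped. The means were 12.2 ± 2.81 (SD, n = 4) and 8.01 ± 0.937 (SD, n = 3). The log2 fold change was -0.60 (SE 0.185, 95% interval -1.02 to -0.18), and edgeR's unadjusted and adjusted p were 0.01 and 0.372. DESeq2 gave an adjusted p of 0.0767. By rank of p, Dbp was number 517 of 19233 genes, and 4.34% of genes had a larger absolute log2 fold change. Sphk2 overlaps Dbp on the opposite strand at a mean of 37.4 CPM, and how strand was used in quantification is not given in the sources used here.

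Tef (ENSMUSG00000022389, chr15:81686622-81711064, plus strand), an output factor of the same family with a shallower rhythm in most tissues, had CPM values of 56.2, 54.9, 54.8 and 49.5 in WT and 45.7, 51.4 and 53.7 in KO. Its log2 fold change was -0.10 (95% interval -0.26 to 0.06; adjusted p = 0.737, edgeR). Hlf (ENSMUSG00000003949, chr11:90227221-90281761, minus strand), the remaining output factor, had 4.94, 5.05, 4.47 and 4.74 CPM in WT and 4.72, 5.15 and 4.86 in KO. Mmd overlaps Hlf on the opposite strand at a mean of 75.6 CPM, far above the level of Hlf itself. The KO values of Hlf lay within or just above the WT range, and its log2 fold change was 0.03 (95% interval -0.19 to 0.26; adjusted p = 0.954, edgeR).

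Of the ROR-element repressors, Nr1d1 had the larger difference between the genotypes. As for Dbp, WT1 was its lowest WT library, but KO2 was the highest KO library for Nr1d1 and the lowest for Dbp. Nr1d1 (ENSMUSG00000020889, chr11:98658752-98666188, minus strand) encodes REV-ERB alpha, the heme-binding nuclear receptor that represses Bmal1. Its CPM was 18.4, 24.02, 30.5 and 33.0 in WT and 20.9, 16.4 and 19.5 in KO. WT2, WT3 and WT4 were again above all KO libraries, and WT1 was below KO2 and KO4. The means were 26.5 ± 6.59 (SD, n = 4) and 18.9 ± 2.34 (SD, n = 3), with a log2 fold change of -0.48 (SE 0.187, 95% interval -0.91 to -0.06). In edgeR the unadjusted p was 0.0299 and the adjusted p 0.489, and in DESeq2 the adjusted p was 0.248. Thra, the thyroid hormone receptor gene, overlaps Nr1d1 on the opposite strand and stood at a mean of 59.2 CPM. Nr1d2 (ENSMUSG00000021775, chr14:4230545-4266624, plus strand), which encodes the related REV-ERB beta, had 39.9, 43.6, 48.2 and 42.3 CPM in WT and 36.6, 39.1 and 44.7 in KO. KO2 and KO3 were below every WT library for Nr1d2 and KO4 was above 3 of them. The fitted difference for Nr1d2 was -0.12 (95% interval -0.31 to 0.08; adjusted p = 0.746, edgeR).

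The 3 period genes, whose proteins form the negative arm of the loop with the cryptochromes, lay close together in WT and KO. Per1 (ENSMUSG00000020893, chr11:68986035-69002300, plus strand), which also answers acutely to hormones and cAMP, had 108, 116, 97.6 and 101 CPM in WT and 127, 111 and 99.5 in KO. KO2 was the highest library for Per1, and KO3 and KO4 lay within the WT range. The log2 fold change of Per1 was 0.09 (95% interval -0.12 to 0.30; adjusted p = 0.827, edgeR). Per2 (ENSMUSG00000055866, chr1:91343700-91387069, minus strand), the period gene whose loss shortens and then abolishes behavioural rhythms, had 19.8, 16.8, 15.4 and 12.7 CPM in WT and 15.5, 16.9 and 14.2 in KO. All 3 KO values of Per2 lay inside the WT range, and the order of the WT libraries was the reverse of that of Nr1d1. For Per2 the log2 fold change was -0.06 (95% interval -0.37 to 0.25; adjusted p = 0.936, edgeR). Per3 (ENSMUSG00000028957, chr4:151081373-151129140, minus strand), the member of the family that the core loop can run without, had 11.0, 10.7, 12.7 and 9.18 CPM in WT and 9.05, 11.7 and 10.8 in KO. Its log2 fold change was -0.05 (95% interval -0.34 to 0.24; adjusted p = 0.949, edgeR), with KO2 just below the WT range and KO3 and KO4 inside it. For each of the 3 genes the interval excludes a change of 0.5 in either direction.

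Clock and Nfil3 belong to the opposite phase, and their point estimates had opposite signs. Clock (ENSMUSG00000029238, chr5:76342860-76452846, minus strand) encodes the activator that pairs with BMAL1 and cycles weakly or not at all in most tissues. It had 71.8, 88.3, 76.2 and 90.5 CPM in WT and 68.6, 67.6 and 76.1 in KO. WT2 and WT4 were above every KO library, whereas KO4 was level with WT3 and above WT1. The log2 fold change of Clock was -0.21 (95% interval -0.41 to 0.00; adjusted p = 0.561, edgeR). The pseudogene Ube2n-ps1, counted at a mean of 19.7 CPM, lies within Clock on the same strand, and Tmem165 overlaps it on the other. Nfil3 (ENSMUSG00000056749, chr13:53121245-53137010, minus strand), the bZIP repressor at D-boxes and a gene known to be induced by many stimuli, had 68.0, 77.6, 60.4 and 76.4 CPM in WT and 96.2, 88.9 and 67.9 in KO. KO2 and KO3 were above all WT libraries and KO4 was below 3 of them. Its log2 fold change was 0.26 (95% interval -0.03 to 0.55; adjusted p = 0.596, edgeR).

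In the two-sided exact permutation test over libraries, in which 4 against 3 libraries allow no p below 0.0286, the lowest of the 10 members was 0.114 for Dbp. Nr1d1 and Clock followed with an exact permutation p of 0.143 each. The remaining members lay between 0.257 and 0.857 in the same exact permutation test.

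Of the cell type markers, the summed theca markers were 2740 to 3020 CPM in WT and 1770 to 2150 in KO, without overlap, and all 4 were at 1 CPM or more in every library. Taken singly, only 1 of the 4, Star, did not overlap. Within WT, WT4 had the highest Star (1916 CPM) and the lowest Cyp17a1 (467 CPM), so the sum hides opposite moves. The summed endothelial markers were 588 to 664 CPM in WT and 549 to 588 in KO, also without overlap, though WT4 and KO4 were level after rounding. Taken singly, 2 of the 4 endothelial markers, Cdh5 and Tek, did not overlap. Sums of stromal fibroblast (2350 to 3610 CPM in WT, 2490 to 2700 in KO), granulosa (575 to 850 and 671 to 945), leukocyte, oocyte, surface epithelium, red blood cell, adipocyte and oviduct markers overlapped between the groups. The smooth muscle sums met only at KO3 (1730 CPM) and WT2 (1720 CPM), with 1720 to 2300 CPM in WT and 1290 to 1730 in KO. All 4 smooth muscle markers had negative log2 fold changes (median -0.37), 3 of them at an unadjusted p under 0.05 in edgeR, and Cnn1 (-0.70) was called by DESeq2 with an adjusted p of 0.00164. The theca (median -0.50), surface epithelium (-0.49) and endothelial (-0.16) markers were also all negative. Those of oocytes (0.26) and red blood cells (0.23) were all positive. All 5 fibroblast and all 7 granulosa markers were at 1 CPM or more in every library, so granulosa cells were not wholly removed, and the adipocyte markers Adipoq and Lep were near 0. Fewer cells of a type and less RNA per cell cannot be told apart in bulk tissue, and the part of cell makeup in the values of Dbp and Nr1d1 was not tested.

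**Figure D2:**
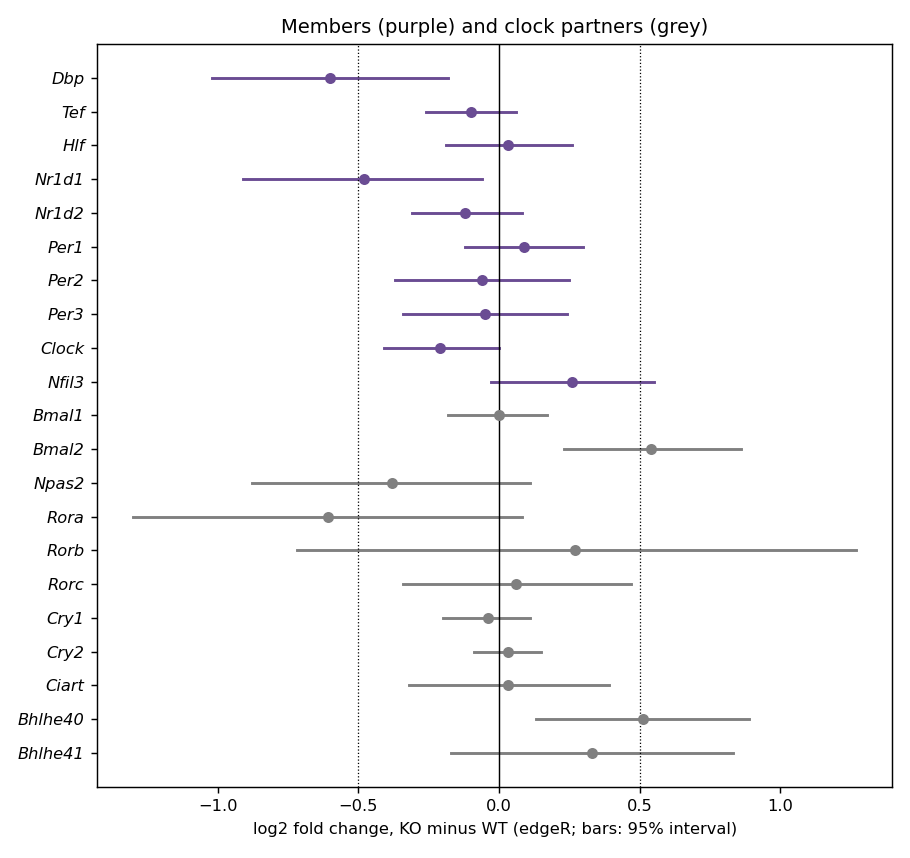
Log2 fold change, KO minus WT (x axis), with its 95% interval from edgeR for the 10 members (purple) and 11 further clock genes (grey); dotted lines mark the fold change of 0.5 that a call required. Among the purple intervals those of Dbp (-1.02 to -0.18) and Nr1d1 (-0.91 to -0.06) lie below 0, and among the grey ones those of Bmal2 and Bhlhe40 lie above it.

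Dbp, Nr1d1 and Nfil3 varied more between libraries of 1 genotype than most genes of like level. The pooled within-genotype SD of log2 CPM was 0.302 for Dbp, higher than in 90.2% of the 1725 genes within 0.5 of its mean log2 CPM, whose median SD was 0.135. For Nr1d1 it was 0.316, higher than in 96.0% of 2526 such genes, and for Nfil3 it was 0.212, higher than in 93.2%. Hlf was at the other end, with an SD of 0.0715 at a percentile of 3.95. The other members lay at percentiles of 58.7 (Tef) to 85.7 (Per2) among genes of like level. Within WT, WT1 was the lowest library for 4 of the 10 members and the highest for 2, and WT2 was never the lowest.

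Taking the library as the unit, the output side of the clock was compared with the activator side. The mean log2 CPM of the 8 members of the output phase (all but Clock and Nfil3) was 4.4, 4.51, 4.57 and 4.45 in WT and 4.28, 4.36 and 4.35 in KO. On this scale all KO libraries were lower than all WT libraries, by 0.15 on average. On the TPM scale the difference was -0.08 and the groups overlapped. The gap was not shared evenly by the members of the output phase. Dbp and Nr1d1 had log2 fold changes of -0.60 and -0.48, and the others lay between -0.12 (Nr1d2) and 0.09 (Per1). The mean log2 CPM of the activator-phase genes Bmal1, Npas2, Clock and Nfil3 was 4.89, 5.00, 4.87 and 5.28 in WT and 4.97, 4.93 and 4.91 in KO, which overlapped. Output minus activator, which sets the output side against the activator side, was -0.49, -0.49, -0.29 and -0.83 in WT and -0.69, -0.57 and -0.56 in KO. The WT mean was -0.53 ± 0.22 (SD, n = 4) and the KO mean -0.61 ± 0.07 (SD, n = 3), a difference of -0.08. WT4, the library with high Npas2, was the only WT library below the KO range, and WT1, WT2 and WT3 were above every KO library. The difference was -0.18 without WT4, -0.00 without WT3 and 0.03 without Nfil3, so its size and sign rest on single libraries and genes. No p is given for these means, since they are scores over the members. Members of the output phase did not all move together. Over the 7 libraries their Pearson r with Dbp ran from -0.60 (Per1) to 0.84 (Nr1d1). Unlike moves can cancel in a mean, and the part of clock phase in these values was not tested.

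**Figure D3:**
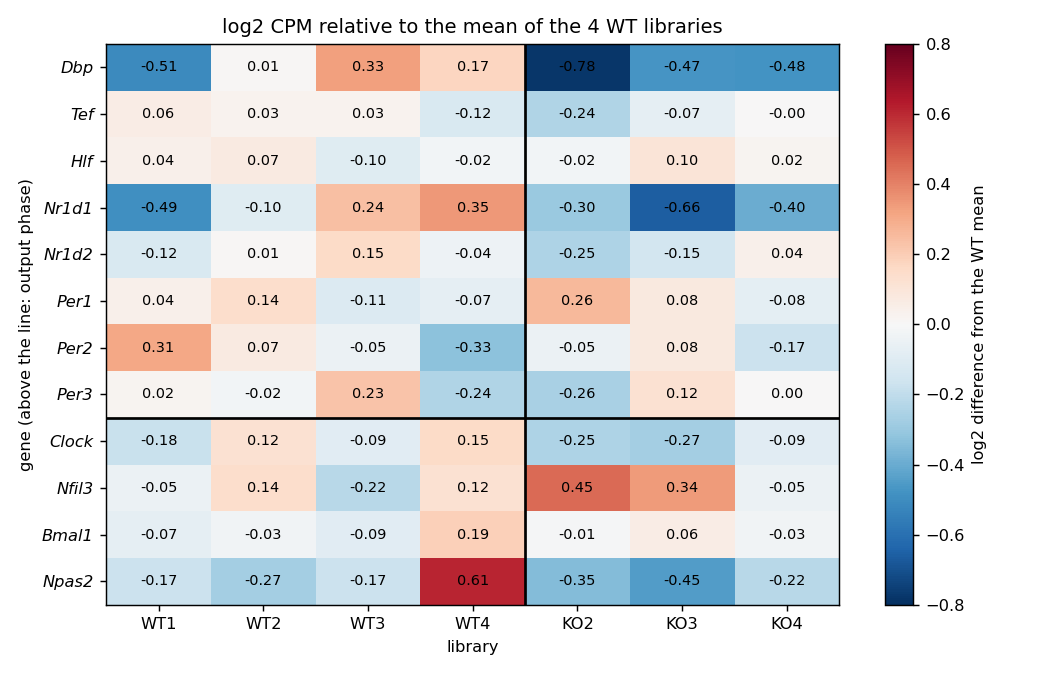
Log2 CPM of each gene (rows) in each library (columns), as the difference from the mean of the 4 WT libraries (colour and printed number). The low values of Dbp and Nr1d1 stand in WT1 as well as in KO2, KO3 and KO4, and Bmal1 lies within 0.1 of the WT mean in every KO library.

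The other genes of the loop were read beside the members. Of 11 such genes, 0 were called in edgeR, 2 were higher in KO at an unadjusted p under 0.05 and 0 were lower. Bmal1, the obligate partner of CLOCK and the main target of NR1D1, had 30.5, 31.2, 30.1 and 36.5 CPM in WT and 31.6, 33.2 and 31.3 in KO, and its log2 fold change was -0.00 (95% interval -0.18 to 0.17; adjusted p = 0.997, edgeR). The cryptochromes, the repressors that bind the PER proteins, were also level, at log2 fold changes of -0.04 for Cry1 and 0.03 for Cry2, as was Ciart, a further repressor with a wide daily swing in other tissues, at 0.03. Bmal2, a paralogue of Bmal1, had 4.15, 4.43, 3.99 and 3.63 CPM in WT and 5.05, 7.11 and 5.57 in KO. Every KO library was above every WT library for Bmal2, with a log2 fold change of 0.54 (95% interval 0.23 to 0.86), an adjusted p of 0.314 in edgeR and of 0.0377 in DESeq2, which called it. Bhlhe40, a repressor at E-boxes that is also induced by hormones and low oxygen, had 130, 149, 131 and 163 CPM in WT and 269, 185 and 158 in KO. KO2 and KO3 were above all WT libraries for Bhlhe40 and KO4 was below WT4. Its log2 fold change was 0.51 (adjusted p = 0.399, edgeR).

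Rora, which encodes an activator at the elements that NR1D1 represses, had 33.2, 52.7, 46.9 and 95.5 CPM in WT and 36.3, 33.3 and 42.6 in KO. WT4 alone was far above the rest, and the log2 fold change of -0.61 had an interval of -1.30 to 0.08. Npas2, a paralogue of Clock, was also highest in WT4, at 9.0 CPM against 4.31 to 5.23 in the other 6 libraries. Of 10 genes that act on clock proteins (kinases, F-box proteins and partners of the PER and CRY proteins), 0 had an unadjusted p under 0.05 in edgeR. Their log2 fold changes ran from -0.50 for Fbxl21, at about 1 CPM, to 0.23 for Usp2. Timeless (0.14) and Btrc (-0.10) did not overlap between the groups.

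Over the 7 libraries, the log2 CPM of Dbp had a Pearson r of 0.84 with Nr1d1, 0.79 with Nr1d2, 0.73 with Clock and 0.71 with Rora. It was weak with Tef (0.37) and Per3 (0.31) and negative with Per1 (-0.60), Nfil3 (-0.57), Hlf (-0.44) and Per2 (-0.37). Among the other clock genes the lowest were Bmal2 (-0.62) and Bhlhe40 (-0.61). Among all genes tested outside the members, those with the highest r were Gm14326 (0.986), Lsr (0.975), A930001C03Rik (0.964), Tmem184a (0.962) and Acaa2 (0.96). Those with the lowest were Caskin1 (-0.989), Gm2011 (-0.977), Rabep2 (-0.976), Asb18 (-0.969) and Rspo4 (-0.967). These are descriptions over 7 points that share genotype and depth with each other, picked from 19233 genes, and the groups are part of each r.

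Several gene lists that move with the clock, with stress hormones or with handling were read in the same libraries. Of 7 genes that cycle in many tissues, 1 was lower in KO at an unadjusted p under 0.05, Tsc22d3, a glucocorticoid- and progesterone-induced leucine zipper gene. It had 58.5, 62.5, 60.7 and 70.2 CPM in WT and 45.3, 48.3 and 47.8 in KO (log2 fold change -0.42, adjusted p = 0.146 in edgeR and 0.000485 in DESeq2, under the fold that a call required). The remaining 6 had log2 fold changes of -0.25 to 0.23. Of 11 glucocorticoid response genes, 4 were lower and 2 higher in KO at an unadjusted p under 0.05 in edgeR, and DESeq2 called 3 lower. The transcription factor gene Zbtb16 had 13.1, 25.4, 15.1 and 23.2 CPM in WT and 5.44, 7.84 and 7.85 in KO. Its log2 fold change was -1.45 (adjusted p = 0.16 in edgeR and 4.81e-07 in DESeq2). The paper reports lower Zbtb16 mRNA and protein in granulosa cells of PRKO ovaries, and describes the gene as PGR-induced in the uterus. Granulosa markers were still present in every library here. Which receptor or cell type lay behind the Zbtb16 values was not tested. The metallothionein gene Mt2 had a log2 fold change of -0.84 (adjusted p = 0.23 in edgeR and 0.000368 in DESeq2).

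The temperature response and immediate early lists leaned the other way. All 8 temperature response genes had positive log2 fold changes, with a median of 0.42, and 5 had an unadjusted p under 0.05 in edgeR, the lowest that of the chaperone gene Hspa8. The list joins heat-shock chaperone genes, at 0.28 to 0.73, to the cold-induced genes Cirbp (0.16) and Rbm3 (0.10), which changed least. The part of temperature in these values was not tested. Hspa8 had 1861, 1768, 1811 and 1841 CPM in WT and 2290, 2664 and 2279 in KO (log2 fold change 0.41, adjusted p = 0.19 in edgeR and 5.72e-05 in DESeq2, under the fold that a call required). All 9 immediate early genes, which report recent stimulation or handling, had positive log2 fold changes, with a median of 0.41, and 6 had an unadjusted p under 0.05. Egr2 had 25.4, 24.3, 24.5 and 21.9 CPM in WT and 38.7, 34.6 and 31.3 in KO (log2 fold change 0.54, adjusted p = 0.111 in edgeR and 3.02e-05 in DESeq2, which called it). Beside these, the values of Per1, which shares inducers with the immediate early genes, were 127 CPM in KO2 and 99.5 in KO4, the KO libraries with the highest and lowest Egr2. Egr2 in KO4 was still above every WT library, whereas Per1 in KO4 was below WT1, WT2 and WT4 (108, 116 and 101 CPM). The part of stress or handling in the values of the clock genes was not tested.

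**Figure D4:**
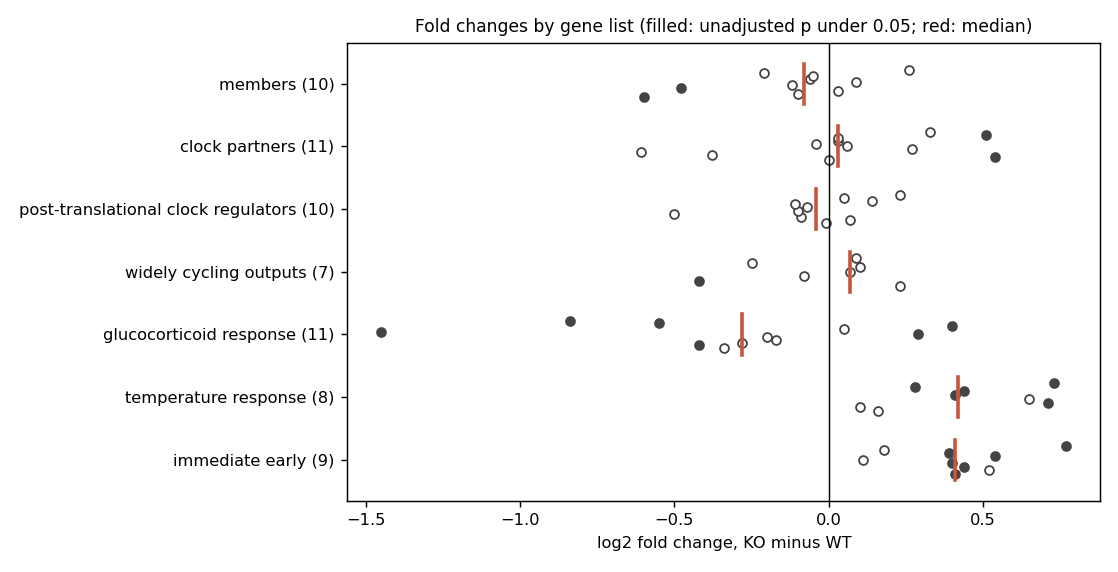
Log2 fold change, KO minus WT (x axis), of every tested gene of each list (rows, number of genes in brackets); filled points have an unadjusted edgeR p under 0.05 and the red bar is the median. The members centre on -0.08, with Dbp and Nr1d1 as the filled points, while the temperature response and immediate early lists lie wholly above 0.

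The deposited files give each transcript separately, and the members differ in how their reads were divided. For Dbp, the full-length coding transcript Dbp-201 had 3.34, 5.83, 6.99 and 6.03 TPM in WT and 2.62, 3.02 and 3.51 in KO. WT1 lay inside the KO range for Dbp-201 too. Its share of the TPM of Dbp was 33.5%, 39%, 37.7% and 35.1% in WT and 29.1%, 26% and 30.3% in KO, lower in every KO library than in any WT library. A second coding transcript, Dbp-204, had 27.7% ± 1.58 (SD, n = 4) of the TPM in WT and 33.8% ± 5.53 (SD, n = 3) in KO, and the retained-intron transcripts Dbp-202 and Dbp-205 held most of the rest. Of 20 member transcripts with a mean share of 5% to 95%, 1 (Dbp-201) did not overlap between the groups, beside 4.79% of 36156 such transcripts over all genes tested. The share of Dbp-201 was chosen for mention after its values were seen, and Salmon's split between transcripts that share exons carries an error that the files do not give.

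For Per3, the largest share in every library, 48.4% to 69.4%, went to Per3-204, a transcript with no annotated coding sequence, and the full-length Per3-201 held 18.3% to 43.6%. The gene-level reads of Per3 therefore count coding and non-coding transcripts together. Tef was divided nearly equally between the coding transcripts Tef-202, with 39.1% of its TPM in WT, and Tef-201, with 39.4%. Clock was carried by Clock-201, at 45.2% to 52.5%, and Clock-205, at 36.1% to 48.7%, and neither share separated the groups. Nr1d1-201, which encodes the receptor, held 80.5% to 92.4% of Nr1d1, and Nfil3 and Per2 had reads on 1 transcript each.

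**Figure D5:**
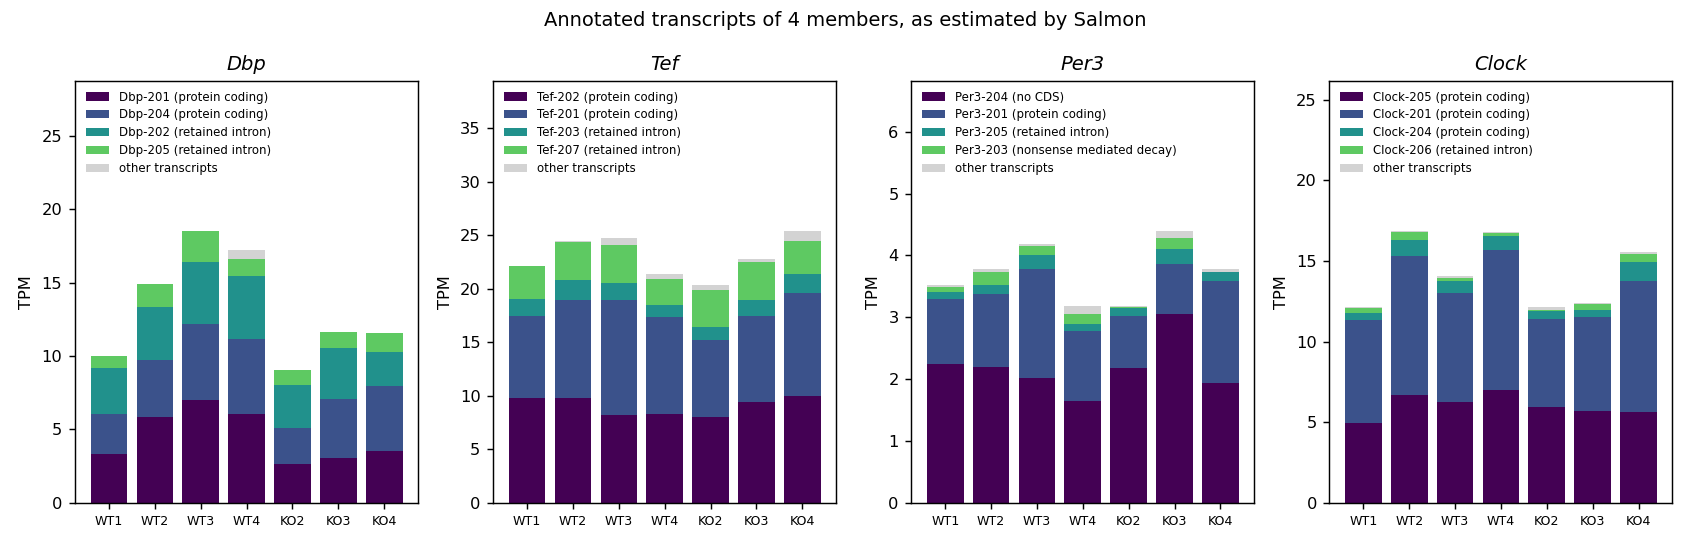
TPM (y axis, stacked from 0) of the annotated transcripts of Dbp, Tef, Per3 and Clock in each library, as Salmon estimated them, with the rarer transcripts in grey. Dbp-201 makes up 33.5% to 39% of the Dbp bar in WT and 26% to 30.3% in KO, and Per3-204 is the largest block of every Per3 bar.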

How the data were processed

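Stromal RNA-seq of 4 WT and 3 KO libraries was analysed, grouped by the genotype in the sample labels. The authors deposited Salmon's expected counts (estimated reads per transcript, from paired 100-base stranded mRNA reads and the GENCODE M26 transcriptome on GRCm39), with TPM (the authors' values per transcript, allowing for length and depth) and effective lengths. Salmon's version and strand setting are not given in the sources used here. Transcripts were assigned to genes by identifier with GENCODE M39 on GRCm39; 137570 of 139225 matched, with 99.37% to 99.4% of reads. Expected counts were summed per gene and rounded.

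Genes were tested with edgeR 4.0.16 in R 4.3.3 (TMM, filterByExpr, glmQLFit with legacy=TRUE, two-sided, Benjamini-Hochberg over 19233 genes) after a check of the code on simulated data. The common biological coefficient of variation was 0.127. The log2 CPM values used a prior count of 0.5 and log2 TPM a pseudocount of 0.5. DESeq2 1.42.0, limma 3.58.1, other filters and scalings, a replicate block and leaving out each library were alternatives. Counting error alone gives an SD of log2 reads of 0.0169 to 0.0918 over members and libraries, below the spread between pools except for Hlf (0.084 to 0.0918, against a spread of 0.0715). The members, lists and tests were chosen with earlier results of these data known. Named were all members, clock genes from the lists, at most 3 genes of lowest p per other list, the genes most like Dbp, and Pgr. Cirbp and Rbm3 of the temperature response list, and some cell type markers, were named besides. Upstream windows were read from GRCm39.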

Additional observations from a re-analysis of the deposited data

Results flagged for a closer look

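Npas2 in WT4 was a library far from the others of its group. It had 9.0 CPM, against 5.23, 4.87 and 5.21 CPM in WT1, WT2 and WT3, a gap that passed Dixon's 95% critical value for 4 samples. Of 31 genes checked (the members, the clock partners and the genes that act on clock proteins), this was the only flag, and chance flags about 5% of groups. The KO group of 3 was too small for the check.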

How the results depend on the processing

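None of the 10 members was called under any of the 17 alternatives, and of 170 log2 fold changes 163 kept their sign. The 7 reversals were in the period genes, whose values are near 0. Per3 was 0.04 on the TPM scale with limma, and Per2 was 0.06 with the replicate block. With each library left out in turn, Per1 ran from -0.01 to 0.17, Per2 from -0.15 to 0.06 and Per3 from -0.12 to 0.05. Dbp stayed between -0.75 and -0.45 over all alternatives, with an adjusted p of 0.0644 to 0.817, and Nr1d1 between -0.62 and -0.35, with 0.189 to 0.859 (edgeR, DESeq2 or limma), so both ranges cross the size of 0.5. Dbp kept an unadjusted p under 0.05 in every alternative, and Nr1d1 lost it on the TPM scale and without WT3, WT4, KO3 or KO4. Clock gained it with no filter, the replicate block, legacy=FALSE and without WT1, WT3 or KO4. Nfil3 gained it with no filter, on the TPM scale and without KO4, and Nr1d2 without KO4. The number of genes called among all tested, 2 in edgeR, was 143 with DESeq2, 36 with no filter on low counts, 6 with at least 10 reads in every library, 1 on the TPM scale with limma, 7 with legacy=FALSE and 1 to 4 with a library left out; the cause was not tested. No pairing of same-numbered WT and KO libraries is named in the sources used here. Their deviations from the group means correlated at -0.026, 0.097 and 0.073. Pairs of unlike number ran from -0.113 (WT4 and KO3) to 0.072 (WT1 and KO3), and whether same-numbered libraries share a batch was not tested. With the number as a replicate block, in which WT1 has no partner, 26 genes were called and no member. The phase contrast, tried on the TPM scale (-0.07), without Nfil3 (0.03) and with each library left out, ran from -0.18 (without WT4) to 0.03, with -0.00 without WT3. With 4 against 3 pools, the width of the 95% interval bounds what could be seen for each member, and it was widest for Dbp and Nr1d1.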

Other observations

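The coding transcript Per1-206 was listed at 0 TPM in all 4 WT libraries and in KO3, and at 3.62 TPM in KO2 and 1.57 in KO4, up to 8.38% of the TPM of Per1. It is 4636 bases long, beside 4671 for the main transcript Per1-201, which held 73.1% to 81.9%. Hlf-203 was likewise listed at 0 in 6 libraries and at 0.34 TPM in KO4. Both were picked after their values were seen, and no test was made.

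Within WT, WT4 stood at the upper end for Rora (95.5 CPM), Npas2 (9.0), Bmal1 (36.5) and Nr1d1 (33.0) and at the lower end for Per2 (12.7) and Per3 (9.18). WT1 stood at the other end for Rora (33.2), Nr1d1 (18.4) and Per2 (19.8).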
